A study of Mus musculus with 8 samples.

Results

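Transcript levels of the germ-cell and somatic isozymes of glycolysis were followed in 8 libraries of mouse pachytene spermatocytes, of which 4 were *Arid1a* WT and 4 *Arid1a* cKO. The isozymes were given as a list of 10 genes, namely *Gapdhs*, *Gapdh*, *Ldhc*, *Ldha*, *Ldhb*, *Aldoart1*, *Aldoart2*, *Aldoa*, *Eno4* and *Hk1*. All 10 were found among the 21058 genes of the deposited tables by matching gene numbers to symbols. *Arid1a* encodes a putative DNA-binding subunit of the BAF chromatin remodelling complex, and the study asked what its loss does to transcription in meiotic prophase. *Arid1a* WT males carried floxed *Arid1a* alleles (fl/fl or fl/+) and no Cre. *Arid1a* cKO males were *Arid1a* fl/fl with 1 copy of the *Stra8-Cre* transgene, which excises the floxed exons in spermatogonia of the postnatal testis. The floxed line is kept on a CD1 background. Spermatocytes of adult males were enriched by Sta-Put, a sedimentation of dissociated testis cells at unit gravity, from pooled testes, and RNA was extracted in 4 portions per genotype from frozen pellets. Excision was incomplete, so the *Arid1a* cKO fractions also held spermatocytes that kept the gene.

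Glycolysis splits glucose into pyruvate in a chain of enzyme steps and yields ATP in the cytosol. Most body cells use widely expressed forms of these enzymes, such as *Gapdh* and *Aldoa*. Male germ cells of the mouse additionally make their own forms. *Gapdhs* and *Aldoart1* proteins sit in the fibrous sheath of the sperm tail, *Ldhc* is the classic testis-specific lactate dehydrogenase that appears in meiotic prophase, and *Hk1* is read from an alternative start in spermatogenic cells. Sperm need this pathway for motility, and mice that lack *Gapdhs*, *Ldhc* or *Eno4* have poorly motile sperm.

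Libraries held 15850961 to 22044507 estimated counts. *Arid1a* itself, which checks the labels, stood at 98.8 to 129 CPM (counts corrected for library depth) in the *Arid1a* WT libraries and at 76.4 to 82.9 in the *Arid1a* cKO libraries, with no overlap (log2 fold change -0.51, SE 0.07, adjusted p = 2.3e-05, edgeR quasi-likelihood test). Of the 17643 genes tested, 74.0% were called between genotypes at an adjusted p of 0.05 or less, 36.5% as higher and 37.5% as lower in *Arid1a* cKO, so a call on its own sets a gene apart little. Values of TPM (a transcript level corrected for transcript length and library depth) of the listed genes made up 78.1% to 81.1% of the whole TPM scale in *Arid1a* WT and 88.1% to 88.6% in *Arid1a* cKO. Genes that mark other testis cells differed between the fractions as well. All 20 markers of round and elongating spermatids rose (median log2 fold change 2.15, range 0.95 to 2.38), and their summed TPM was 9417 to 10357 in *Arid1a* WT and 34306 to 35818 in *Arid1a* cKO. All 10 Sertoli cell markers and 5 of 6 Leydig cell markers fell. By contrast, 4 of 5 peritubular myoid markers and 6 of 9 macrophage and blood markers (1 lower) rose. Both lists were at low levels, with a median gene at 0.943 and 0.754 TPM in *Arid1a* WT and 1.36 and 1.27 in *Arid1a* cKO. Of the spermatogonia markers, 7 of 10 rose (2 lower), but their summed TPM overlapped, at 129 to 141 in *Arid1a* WT and 132 to 142 in *Arid1a* cKO. Markers of spermatocytes were divided, with 4 of 10 higher and 6 of 10 lower, and their summed TPM was 4116 to 4393 in *Arid1a* WT and 3196 to 3255 in *Arid1a* cKO. No marker of these lists was at 0 in all libraries. In such mixed fractions, fewer cells of a type and less RNA per cell cannot be told apart.

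All 10 isozyme transcripts passed the filter on low counts. *Ldhb* did so only through its few *Arid1a* WT counts, so it is described by its counts and left out of the tallies. Of the other 9, 6 rose in *Arid1a* cKO (*Gapdhs*, *Aldoart1*, *Aldoart2*, *Hk1*, *Aldoa* and *Gapdh*), 2 fell (*Ldhc* and *Ldha*), and *Eno4* did not pass the test. The calls of *Ldhc* and *Ldha* lay close to the threshold in counts. The 8 calls among 9 compare with 74.0% of all genes. A rise of at least 1 log2 unit was called for 5 of the 9, against 20.6% of all genes. For a rise of at least 2 log2 units it was 3 of the 9, against 8.82%. Falls of these sizes were not counted over all genes. Both size counts depended on the scaling, since *Aldoa* was at 0.96 without TMM and 0.80 by limma on log2(TPM + 1), and *Gapdhs* at 1.96 by the latter. CPM values of the genotypes did not overlap for 6 of the 9, against 68.9% of all genes. The median log2 fold change was 1.06 over the 9 isozymes and -0.02 over all genes tested. The germ-cell isozymes did not all move the same way, since *Gapdhs*, *Aldoart1* and *Aldoart2* rose 4.57-fold to 5.05-fold while *Ldhc*, the most abundant of them, fell.

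**Figure D1:**
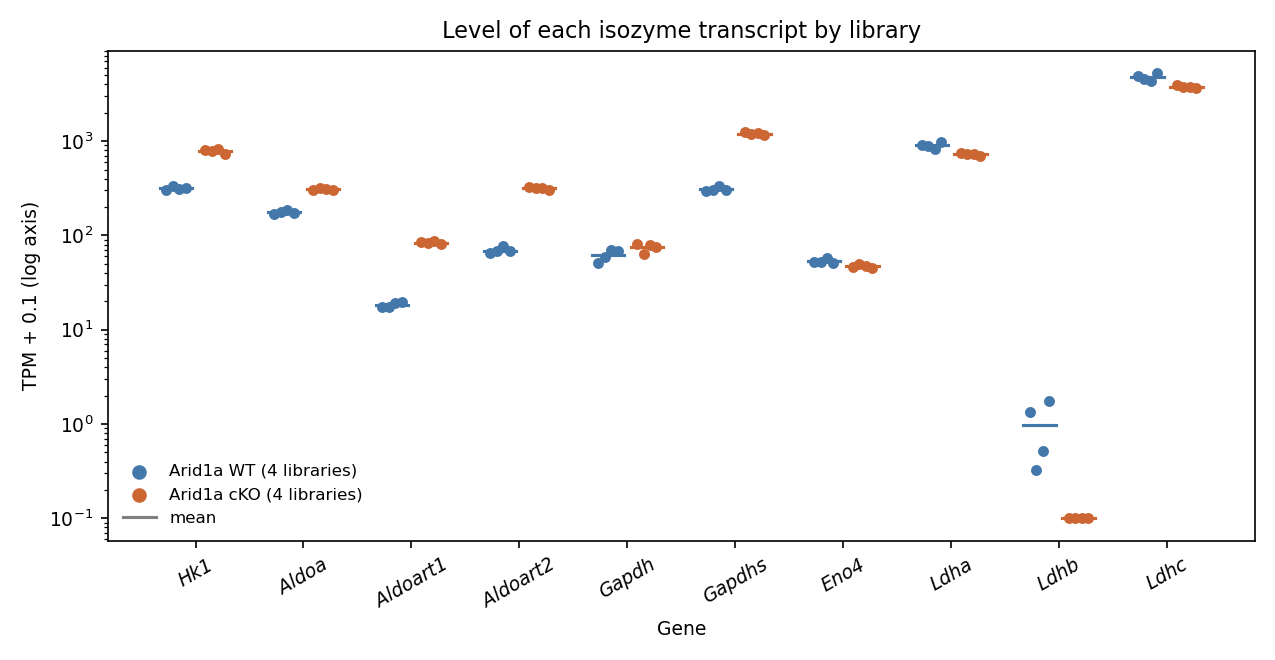
TPM + 0.1 on a log axis for each of the 10 isozyme transcripts, with 1 point per library (blue, *Arid1a* WT; orange, *Arid1a* cKO) and a line at the mean of 4 libraries. *Gapdhs*, *Aldoart1*, *Aldoart2*, *Hk1* and *Aldoa* lie higher in every *Arid1a* cKO library than in any *Arid1a* WT library, and *Ldhb* is at 0 TPM in all 4 *Arid1a* cKO libraries.

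The order of the levels changed between genotypes. In *Arid1a* WT, *Ldhc* was the most abundant of all genes in the table at a mean of 4759.5 TPM, followed among the isozymes by *Ldha* (904 TPM), *Hk1* (317), *Gapdhs* (308), *Aldoa* (177), *Aldoart2* (69.0), *Gapdh* (61.8), *Eno4* (53.0), *Aldoart1* (18.3) and *Ldhb* (0.882). Neighbours in that order overlapped in range for *Hk1* and *Gapdhs*, for *Aldoart2* and *Gapdh*, and for *Gapdh* and *Eno4*. In *Arid1a* cKO, *Ldhc* was still first among the isozymes at 3787 TPM and stood at rank 8 of all genes. *Gapdhs* moved up to second at 1202 TPM, ahead of *Hk1* (786), *Ldha* (728), *Aldoart2* (316), *Aldoa* (308), *Aldoart1* (83.7), *Gapdh* (74.6), *Eno4* (47.0) and *Ldhb* (0). There the ranges of *Hk1* and *Ldha*, of *Aldoart2* and *Aldoa*, and of *Aldoart1* and *Gapdh* overlapped. *Ldhc* made up 71.3% of the summed TPM of the 10 isozymes in *Arid1a* WT and 51.6% in *Arid1a* cKO.

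The aldolases show how closely some of the germ-cell genes copy a somatic gene. Aldolase splits fructose 1,6-bisphosphate into a pair of 3-carbon sugars. *Aldoa* on chromosome 7 has 9 exons in its principal transcript, whereas *Aldoart1* on chromosome 4 and *Aldoart2* on chromosome 12 have 1 exon each, as retrogenes copied from an mRNA do. Coding sequences of the GENCODE M21 transcripts were 94.4% identical between *Aldoa* and *Aldoart1* (1031 of 1092 aligned bases) and 91.7% between *Aldoa* and *Aldoart2* (1001 of 1092). A stretch of 60 coding bases near the 5′ end is shown because it tells the 3 transcripts apart, with bases that differ from *Aldoa* in capitals. On GRCm38 it lies at chr7:126797687-126797746 on the minus strand in exon 2 of *Aldoa*, at chr4:72852336-72852395 on the minus strand in *Aldoart1*, with 5 differing bases, and at chr12:55565301-55565360 on the plus strand in *Aldoart2*, with 3.
*Aldoa*: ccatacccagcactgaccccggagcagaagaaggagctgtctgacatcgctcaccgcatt
*Aldoart1*: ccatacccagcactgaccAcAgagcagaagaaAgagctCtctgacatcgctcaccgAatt
*Aldoart2*: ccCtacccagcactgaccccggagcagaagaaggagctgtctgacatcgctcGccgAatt

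Both retrogenes rose, and both rose more than *Aldoa*. *Aldoart2* stood at 64.3, 67.4, 76.7 and 67.5 TPM in *Arid1a* WT replicates 1 to 4 and at 329.6, 319.9, 315 and 299 in *Arid1a* cKO replicates 1 to 4. Every *Arid1a* cKO library was far above every *Arid1a* WT library. The fitted change was 5.05-fold (log2 fold change 2.34, SE 0.06, adjusted p = 7.5e-14). *Aldoart1* stood at 17.4, 17.1, 19.1 and 19.5 TPM in *Arid1a* WT and at 84.6, 82.4, 87.2 and 80.6 in *Arid1a* cKO (5.04-fold, log2 fold change 2.33, SE 0.06, adjusted p = 1.2e-13). The groups were again separate. *Aldoa*, the muscle and ubiquitous form, stood at 168, 178, 185 and 175 TPM in *Arid1a* WT and at 306, 315, 309.8 and 300.3 in *Arid1a* cKO (2.09-fold, log2 fold change 1.06, SE 0.04, adjusted p = 2.1e-11). Its groups did not overlap either. The summed TPM of the family was 253 to 285 in *Arid1a* WT and 681 to 723 in *Arid1a* cKO.

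Within each library the retrogenes gained on *Aldoa*. The *Aldoart2* to *Aldoa* ratio of TPM was 0.378 to 0.415 in *Arid1a* WT and 0.997 to 1.08 in *Arid1a* cKO, so the retrogene transcript drew level with the parent (difference of log2(TPM + 0.1) -1.36 ± 0.06 against 0.04 ± 0.05, SD, n = 4 each, change 1.39, two-sided exact permutation p = 0.0286, adjusted over 6 pairs 0.0343). A p of 0.0286 is the smallest that 4 libraries against 4 allow. The *Aldoart1* to *Aldoa* ratio was 0.0962 to 0.112 in *Arid1a* WT and 0.262 to 0.282 in *Arid1a* cKO (change 1.39 on the log2 scale, exact permutation p = 0.0286, adjusted p = 0.0343). Of the summed aldolase TPM, *Aldoa* held 66.1% ± 1.04 (SD, n = 4) in *Arid1a* WT and 43.4% ± 0.721 in *Arid1a* cKO. *Aldoart2* held 25.8% ± 0.734 and 44.5% ± 0.763, and *Aldoart1* 6.85% ± 0.372 and 11.8% ± 0.321. The brain form *Aldoc* was a minor part, at 1.18% in *Arid1a* WT and 0.25% in *Arid1a* cKO. Reads can be shared among these copies. Of the distinct 31-base stretches of *Aldoart1*, 10.2% also occur in *Aldoa* transcripts, and 5.84% of those of *Aldoart2* do, so the levels of the 3 genes depend in part on how the quantifier divided common reads.

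Glyceraldehyde-3-phosphate dehydrogenase carries out the oxidation step of glycolysis, and *Gapdhs* is its sperm form. The principal *Gapdhs* transcript codes for a protein with an added N-terminal stretch, and its coding sequence of 1314 bases is longer than the 999 bases of *Gapdh*. Over the 995 aligned bases the coding sequences were 72.9% identical. A stretch of 60 coding bases shows the distance, with bases of *Gapdhs* that differ from *Gapdh* in capitals (19 of 60). It lies at chr6:125163277-125163336 in exon 3 of *Gapdh* and at chr7:30736666-30736725 in exon 4 of *Gapdhs* on GRCm38, on the minus strand in both.
*Gapdh*: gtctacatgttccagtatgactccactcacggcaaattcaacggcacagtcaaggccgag
*Gapdhs*: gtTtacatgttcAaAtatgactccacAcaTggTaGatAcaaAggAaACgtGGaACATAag

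*Gapdhs* rose 4.57-fold and *Gapdh* 1.20-fold. *Gapdhs* stood at 296, 304, 331 and 302 TPM in *Arid1a* WT and at 1237, 1202, 1220.5 and 1149 in *Arid1a* cKO (log2 fold change 2.19, SE 0.05, adjusted p = 6.1e-14). The lowest *Arid1a* cKO library was above the highest *Arid1a* WT library by a wide margin. *Gapdh* stood at 50.3, 59.4, 69.6 and 67.8 TPM in *Arid1a* WT and at 81.2, 63.5, 79.1 and 74.6 in *Arid1a* cKO, and the groups overlapped. On the count scale the groups did not overlap, at 26.3 to 32.0 CPM against 32.2 to 37.9 CPM, and the call rested on that scale (log2 fold change 0.26, SE 0.07, adjusted p = 0.0042). By limma on log2(TPM + 1) it was lost at a similar size of change (0.27, adjusted p = 0.064). By limma on TPM rescaled to the listed genes it was lost at a smaller change (0.12, adjusted p = 0.37). *Gapdh* has many processed copies in the mouse genome, and 28.1% of its 31-base stretches occur in transcripts of 330 other annotated genes, so its level is uncertain.

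The ratio of *Gapdhs* to *Gapdh* within a library was 4.46 to 5.89 in *Arid1a* WT and 15.2 to 18.9 in *Arid1a* cKO. The difference of log2(TPM + 0.1) was 2.33 ± 0.17 against 4.01 ± 0.15 (SD, n = 4 each), a change of 1.69 (exact permutation p = 0.0286, adjusted p = 0.0343). *Gapdhs* therefore held 83.4% ± 1.63 of the summed TPM of both genes in *Arid1a* WT and 94.2% ± 0.551 in *Arid1a* cKO. The summed TPM was 347 to 401 in *Arid1a* WT and 1223 to 1318 in *Arid1a* cKO. *Gapdhs* overlaps the antisense gene *Tmem147os*, which holds 7.16% of its 31-base stretches, and the use of strand in quantification is not given in the sources used here.

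Hexokinase commits glucose to the cell by phosphorylating it, and *Hk1* was nearly the only hexokinase transcript measured. *Hk1* stood at 302, 333, 312 and 321 TPM in *Arid1a* WT and at 802, 784, 821 and 736 in *Arid1a* cKO. The groups were separate, and on the count scale the rise was 3.14-fold (log2 fold change 1.65, SE 0.05, adjusted p = 1.1e-12). *Hk1* held 97.8% ± 0.252 (SD, n = 4) of the summed hexokinase TPM in *Arid1a* WT and 99.4% ± 0.0301 in *Arid1a* cKO, while *Hk2*, the insulin-responsive form, held 1.81% ± 0.193 and 0.263% ± 0.0221. The rise in TPM was smaller than in counts, at 2.48-fold between the means. The mean length assigned to the *Hk1* transcripts, which counts do not correct for, differed between genotypes. This length was scaled by library and divided by the mean of the same gene over all 8 libraries. The result was 0.888 to 0.956 in *Arid1a* WT and 1.06 to 1.08 in *Arid1a* cKO, higher in every *Arid1a* cKO library. The same held to a lesser extent for *Aldoa* (0.947 to 0.967 against 1.03 to 1.05) and for *Gapdhs* (0.954 to 0.988 against 1.02 to 1.05), whereas for *Ldhc* it was 0.993 to 1.01 over all 8 libraries.

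*Gapdhs* and *Hk1* were among the isozymes that rose, and RefSeq lists more than 1 start for each. The 100 bases before 3 of these starts are shown because the same 8 letters stand in all of them. Capitals mark TGACATCA or its reverse complement TGATGTCA, letters that resemble the cAMP response element. The outer *Gapdhs* start has the window chr7:30743682-30743781, the inner *Gapdhs* start chr7:30739408-30739507 and the outer *Hk1* start chr10:62379909-62380008, each on the minus strand of GRCm38.p6 and read 5′ to 3′ towards the start. Outer and inner hold only among starts for which a window was available, since the RefSeq record of *Gapdhs* reaches farther out, to position 30744791.
*Gapdhs* outer start: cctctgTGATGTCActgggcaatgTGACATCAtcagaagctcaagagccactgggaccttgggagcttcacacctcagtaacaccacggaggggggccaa
*Gapdhs* inner start: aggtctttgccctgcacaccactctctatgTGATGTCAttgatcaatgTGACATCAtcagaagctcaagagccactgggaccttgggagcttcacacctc
*Hk1* outer start: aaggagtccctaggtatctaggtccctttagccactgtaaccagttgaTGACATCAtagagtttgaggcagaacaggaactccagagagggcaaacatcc

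The matches begin 94 and 76 bases before the outer *Gapdhs* start, 70 and 52 bases before the inner one and 52 bases before the *Hk1* start. The 2 *Gapdhs* windows share an unbroken run of 57 bases, so their matches are not separate cases. Windows of 250 bases were available for 15 starts of 9 of the 10 isozymes, and TGACATCA stood on either strand in 3 of the 15, against 2.93% of 32851 starts in the RefSeq table. The letters were chosen after the windows had been seen. The palindrome TGACGTCA stood before 1 of the 15 starts, a *Ldha* start (1.55% of all starts), and the shorter TGACGT, which lies within that palindrome, before a *Ldha* and a *Ldhc* start (6.47%). The GC box GGGCGG stood before 4 starts, of *Aldoa*, *Ldha* and *Ldhc* (32.7%), GTTGCC before 2 starts, of *Aldoa* and *Eno4* (10.4%), and TATAAA before 0 (12.4%). The window of *Aldoart2* held none of these letters, and neither did that of *Gapdh*. TGACATCA stood before no start of *Aldoa*, which also rose and has more than 1 start. A match describes letters in a window and is not a measured site.

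Lactate dehydrogenase interconverts pyruvate and lactate, and *Ldhc* is its germ-cell form. *Ldha* and *Ldhc* are neighbours on chromosome 7, with 5635 bases between them, and each has 8 exons in its principal transcript. Their coding sequences were 73.7% identical over 995 aligned bases, and none of the 31-base stretches of *Ldhc* occurred in another gene, so reads of *Ldhc* could be told from the rest. Of the 31-base stretches of *Ldha*, 19.6% occur in transcripts of 1480 other annotated genes, so the level of *Ldha* is less certain. A stretch of 60 coding bases in exon 2 is shown to compare the 3 forms, with bases that differ from *Ldha* in capitals (16 of 60 in each). It lies at chr7:46847677-46847736 (plus strand) in *Ldha*, chr7:46861827-46861886 (plus strand) in *Ldhc* and chr6:142505421-142505480 (minus strand) in *Ldhb*, on GRCm38.
*Ldha*: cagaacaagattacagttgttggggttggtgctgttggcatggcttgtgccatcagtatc
*Ldhc*: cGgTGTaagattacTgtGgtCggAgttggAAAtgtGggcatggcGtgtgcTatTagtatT
*Ldhb*: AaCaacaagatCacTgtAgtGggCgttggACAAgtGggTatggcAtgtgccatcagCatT

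*Ldhc* and *Ldha* both fell, by an amount that depended on the scale. *Ldhc* stood at 4860.1, 4549, 4355 and 5273 TPM in *Arid1a* WT and at 3949, 3764, 3782 and 3652 in *Arid1a* cKO. Every *Arid1a* WT library was above every *Arid1a* cKO library in TPM, while the CPM values overlapped (3271 to 4246 against 3153 to 3489). In the count test *Ldhc* fell by 0.19 on the log2 scale (SE 0.08, adjusted p = 0.042). *Ldha* stood at 913, 893, 821 and 990.0 TPM in *Arid1a* WT and at 743, 735, 732 and 703 in *Arid1a* cKO, again separate in TPM and overlapping in CPM (865 to 1128 against 856 to 926), and fell by 0.17 on the log2 scale (SE 0.07, adjusted p = 0.049). Both calls lay close to the threshold on this scale. By limma on log2(TPM + 1) the changes were larger and called (*Ldhc* -0.33 and *Ldha* -0.31, adjusted p = 0.0021 for each), as they were without TMM (-0.28, adjusted p = 0.00040, and -0.26, adjusted p = 0.00035) and on TPM rescaled to the listed genes (-0.48, adjusted p = 0.00013, and -0.46, adjusted p = 9.6e-05). In the edgeR test without *Arid1a* WT replicate 4, the library with the highest level of both, *Ldhc* was at -0.10 (adjusted p = 0.16) and *Ldha* at -0.09 (adjusted p = 0.20). The call of *Ldhc* was also lost without *Arid1a* WT replicate 1 or without *Arid1a* cKO replicate 2, 3 or 4, and that of *Ldha* held only without *Arid1a* WT replicate 3. In the fits without a library other than *Arid1a* WT replicate 4 that lost the call, the values were -0.18 to -0.16 for *Ldhc* and -0.19 to -0.15 for *Ldha*, and DESeq2 did not call them (-0.16, adjusted p = 0.0811, and -0.14, adjusted p = 0.11). With the replicate number as a block in edgeR, neither was called (*Ldhc* -0.18, adjusted p = 0.0501, and *Ldha* -0.16, adjusted p = 0.0541).

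No difference in the balance of *Ldhc* and *Ldha* was detected. The *Ldhc* to *Ldha* ratio of TPM was 5.09 to 5.33 in *Arid1a* WT and 5.12 to 5.31 in *Arid1a* cKO, and the groups overlapped (difference of log2(TPM + 0.1) 2.40 ± 0.03 against 2.38 ± 0.02, SD, n = 4 each, exact permutation p = 0.429, adjusted p = 0.429). *Ldhc* held 84.0% ± 0.287 of the summed TPM of *Ldha*, *Ldhb* and *Ldhc* in *Arid1a* WT and 83.9% ± 0.209 in *Arid1a* cKO. With *Ldhal6b* in the sum, *Ldhc* held 69.5% to 70.5% in the *Arid1a* WT libraries and 68.8% to 69.8% in the *Arid1a* cKO libraries, and the groups again overlapped. *Ldhb*, the heart form, was hardly present. It had 11, 2, 3 and 16 counts in the *Arid1a* WT libraries and 0 counts in each *Arid1a* cKO library. Against a floor of 3 counts over the *Arid1a* cKO group, *Ldhb* was at least 9.21-fold lower, given as a description with no test, and at least 6.24-fold lower without *Arid1a* WT replicate 4. A share of 33.0% of its 31-base stretches occurs in the copy *Gm5514*. Sertoli and Leydig cell markers, which fell in *Arid1a* cKO, moved in the same direction as *Ldhb*, and their part in the result was not tested. *Ldhal6b*, another LDH-like gene expressed in the testis, stood at 1134 ± 113 TPM and 955 ± 5.34 TPM and was not called (log2 fold change -0.11, SE 0.08, adjusted p = 0.21), although it was called lower by limma on log2(TPM + 1) (-0.24, adjusted p = 0.015), without TMM (-0.21, adjusted p = 0.0058) and without *Arid1a* WT replicate 3 (-0.19, adjusted p = 0.0079), and with single libraries dropped it lay between -0.19 and -0.0227.

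**Figure D2:**
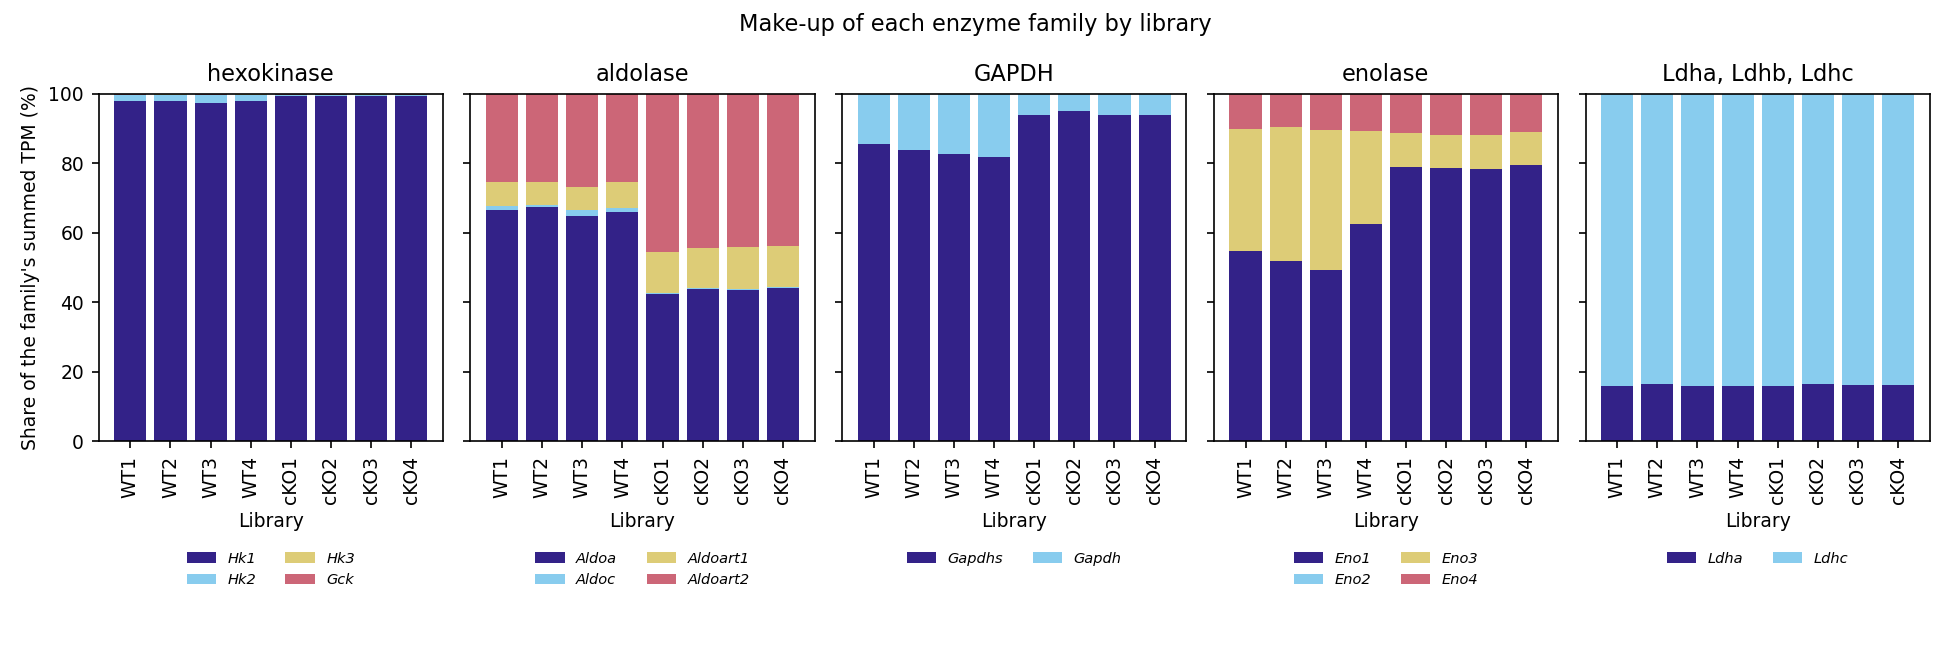
Share of the summed TPM of each set of isozymes taken by each of its genes (the LDH set is *Ldha*, *Ldhb* and *Ldhc*, without *Ldhal6b*), in percent, as 1 stacked bar per library (*Arid1a* WT 1 to 4, then *Arid1a* cKO 1 to 4), without genes under 0.1% in every library. The aldolase and GAPDH families shift towards *Aldoart2* and *Gapdhs* in every *Arid1a* cKO library, while *Ldhc* takes 83.6% to 84.2% of the sum of *Ldha*, *Ldhb* and *Ldhc* in all 8 libraries.

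Enolase makes phosphoenolpyruvate, and *Eno4* is the form found in the sperm tail. *Eno4* stood at 51.6, 52.4, 56.9 and 51.1 TPM in *Arid1a* WT and at 45.7, 49.5, 47.9 and 45.0 in *Arid1a* cKO, with every *Arid1a* WT library above. In counts the groups overlapped at 81.5 to 84.3 CPM against 76.6 to 84.0 CPM, and *Eno4* was not called (log2 fold change -0.05, SE 0.05, adjusted p = 0.38). It was called lower where counts were scaled by library size without TMM (-0.15, adjusted p = 0.014) and by limma on log2(TPM + 1) (-0.17, adjusted p = 0.025). Of the other enolases, *Eno3*, the muscle form, fell from 185 ± 41.7 to 39.1 ± 1.01 TPM (SD, n = 4 each, log2 fold change -1.95, SE 0.11, adjusted p = 5.4e-10). *Eno1*, the ubiquitous form, stood at 282 ± 12.3 and 320.2 ± 6.17 TPM (log2 fold change 0.17, SE 0.06, adjusted p = 0.015), but it was not called without TMM (0.07, adjusted p = 0.13), on TPM rescaled to the listed genes (0.03, adjusted p = 0.57) or without *Arid1a* cKO replicate 2 (0.15, adjusted p = 0.050), and 27.7% of its 31-base stretches occur in its copy *Eno1b*. The ratio of *Eno4* to *Eno1* was 0.172 to 0.212 in *Arid1a* WT and 0.141 to 0.152 in *Arid1a* cKO, the only one of the 6 pairs tested in which the germ-cell form lost ground beyond the spread of the libraries (change -0.35 on the log2 scale, exact permutation p = 0.0286, adjusted p = 0.0343). *Eno4* held 10.2% ± 0.516 of the enolase TPM in *Arid1a* WT and 11.6% ± 0.339 in *Arid1a* cKO, while *Eno3* went from 35.2% ± 5.94 to 9.62% ± 0.261.

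**Figure D3:**
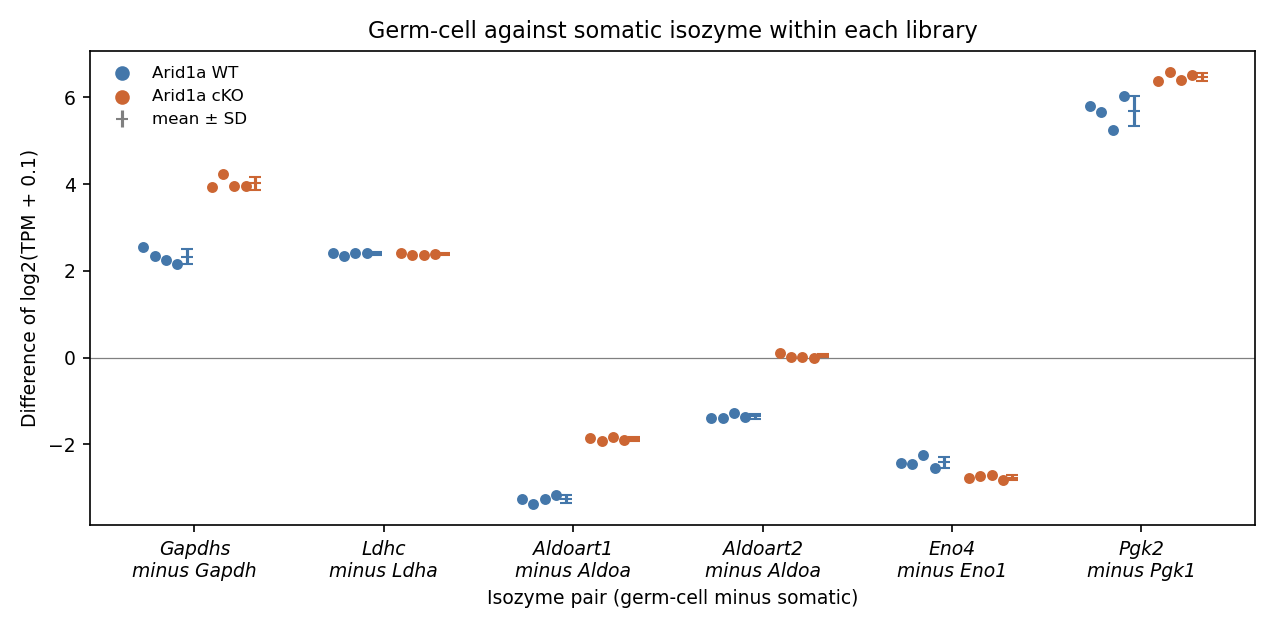
Difference of log2(TPM + 0.1) between the germ-cell and the somatic isozyme of 6 pairs, with 1 point per library and bars for the mean ± SD of 4 libraries. The pairs of *Gapdhs*, *Aldoart1*, *Aldoart2* and *Pgk2* lie higher in *Arid1a* cKO, *Ldhc* minus *Ldha* is at 2.35 to 2.41 in all 8 libraries, and *Eno4* minus *Eno1* lies lower in *Arid1a* cKO.

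The rest of the pathway was read from a fixed list of 22 other glycolytic enzymes. Of the 21 tested, 8 were higher, 8 lower and 5 not called, and the median log2 fold change was 0.13. This is 76.2% called, near the 74.0% of all genes. Early steps went both ways. *Gpi1*, which converts glucose 6-phosphate to fructose 6-phosphate, rose from 85.1 ± 3.77 to 199 ± 7.49 TPM (log2 fold change 1.33, SE 0.04, adjusted p = 2.0e-12). The phosphofructokinases *Pfkm* and *Pfkp*, which catalyse the committed step, fell from 262 ± 3.79 to 127 ± 3.62 TPM (log2 fold change -0.90, adjusted p = 2.2e-10) and from 216 ± 30.4 to 102 ± 1.45 TPM (log2 fold change -1.18, adjusted p = 9.9e-09). *Pgk2*, the autosomal retrogene that makes phosphoglycerate kinase in germ cells, rose from 272 ± 18.8 to 701 ± 21.7 TPM (2.84-fold by counts, SE 0.07 on the log2 scale, adjusted p = 7.0e-11). Its ratio to X-linked *Pgk1* was 38.3 to 67.0 in *Arid1a* WT and 83.6 to 96.7 in *Arid1a* cKO (change 0.78 on the log2 scale, exact permutation p = 0.0286, adjusted p = 0.0343), although 54.7% of the 31-base stretches of *Pgk1* occur in other genes. Among the late steps, *Pgam2* stood at a mean of 1108 TPM in *Arid1a* WT and 1112 TPM in *Arid1a* cKO and was not called (log2 fold change 0.13, SE 0.08, adjusted p = 0.14) unless *Arid1a* WT replicate 4 was left out (0.23, adjusted p = 0.0024), *Pgam1* fell (log2 fold change -0.60, SE 0.06, adjusted p = 6.9e-07) and *Pkm*, pyruvate kinase, rose from 81.8 ± 3.95 to 167 ± 3.94 TPM (log2 fold change 0.94, SE 0.05, adjusted p = 4.9e-10).

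**Figure D4:**
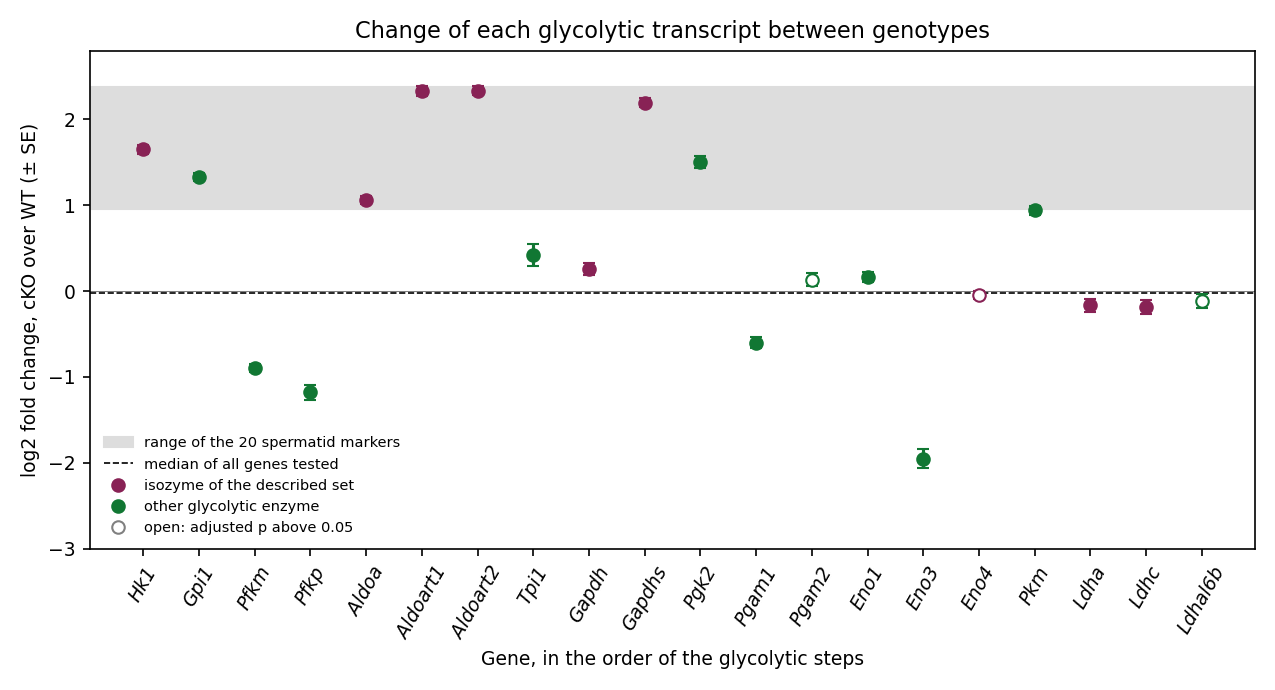
Log2 fold change of *Arid1a* cKO over *Arid1a* WT with its SE for the isozymes (purple, *Ldhb* left out) and the other glycolytic enzymes with a mean TPM of 10 or more (green), from the first step on the left to lactate on the right. The grey band is the range of the 20 spermatid markers (0.95 to 2.38), in which *Gapdhs*, *Aldoart1*, *Aldoart2*, *Hk1* and *Aldoa* lie, and *Ldha*, *Ldhc*, *Eno4* and *Gapdh* lie between -0.19 and 0.26.

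Genes that set the flux through glycolysis and the entry of pyruvate into mitochondria were counted likewise. Of 7 flux regulators, 3 were higher, 3 lower and 1 not called, which is 85.7% called beside the 74.0% of all genes. The bifunctional enzymes that set fructose 2,6-bisphosphate moved apart, with *Pfkfb3* going from a mean of 10.6 to 27.9 TPM (log2 fold change 1.03, adjusted p = 1.1e-08) and *Pfkfb4*, the testis form, from 38.3 to 15.4 TPM (log2 fold change -1.43, adjusted p = 9.4e-11). *Pfkfb2* fell (log2 fold change -0.49, SE 0.10, adjusted p = 0.00037), and *Bpgm* rose (0.59, SE 0.08, adjusted p = 8.9e-06). Of 15 genes of pyruvate entry, 6 were higher, 6 lower and 3 not called, which is 80.0% called beside the same 74.0%. Of the subunits of the pyruvate dehydrogenase complex, only X-linked *Pdha1* was called higher (log2 fold change 0.50, SE 0.16, adjusted p = 0.0105). Its level was low, at a mean of 1.44 TPM in *Arid1a* WT and 1.72 in *Arid1a* cKO, and the groups overlapped in TPM. *Pdhx* was not called except with offsets for transcript length (0.20, adjusted p = 0.033). A further 4 fell, namely the autosomal retrogene *Pdha2* (log2 fold change -0.81, SE 0.06), *Pdhb* (-0.75, SE 0.06), *Dlat* (-0.53, SE 0.06) and *Dld* (-0.31, SE 0.08). Their adjusted p values were 8.1e-09, 8.8e-08, 1.1e-06 and 0.0018. Kinases that switch the complex off and phosphatases that switch it on each went both ways. *Pdk3* (log2 fold change 2.05, SE 0.05, adjusted p = 5.4e-14) and *Pdk2* (0.72, SE 0.05, adjusted p = 2.8e-09) among the kinases and *Pdp1* (1.87, SE 0.06, adjusted p = 7.2e-13) among the phosphatases rose, while the kinase *Pdk1* (-0.59, SE 0.10, adjusted p = 6.7e-05) and the phosphatase *Pdp2* (-0.91, SE 0.15, adjusted p = 5.2e-05), both at lower levels, fell. The mitochondrial pyruvate carrier subunit *Mpc2* rose (log2 fold change 0.79, SE 0.05, adjusted p = 3.8e-09), and its partner *Mpc1* was at 0.14 (SE 0.06, adjusted p = 0.056) and not called. *Mpc1* was called higher by DESeq2 (0.17, adjusted p = 0.049), with DESeq2 size factors, with filterByExpr and without *Arid1a* WT replicate 2 or 4 or *Arid1a* cKO replicate 1 or 4, whereas its sign turned by limma on log2(TPM + 1) (-0.08, adjusted p = 0.42) and it was called lower on TPM rescaled to the listed genes (-0.22, adjusted p = 0.033), so its direction depended on the scaling.

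The isozymes that rose were set beside the spermatid markers, which rose too. The difference of log2(TPM + 0.1) between *Gapdhs* and the mean of the 20 spermatid markers was 0.29 to 0.34 in *Arid1a* WT and 0.34 to 0.43 in *Arid1a* cKO, and the genotypes overlapped, a change of 0.08 in the mean. *Aldoart1* and *Aldoart2* gained 0.30 and 0.31 on the markers, with every *Arid1a* cKO library higher. *Hk1* and *Aldoa* lost 0.58 and 1.08 against them, and *Gapdh*, *Eno4*, *Ldha* and *Ldhc* lost 1.61, 2.06, 2.20 and 2.21, with every *Arid1a* WT library higher. Of the 20 spermatid markers, 6 rose more than *Gapdhs*, 3 more than *Aldoart1*, 3 more than *Aldoart2*, 18 more than *Hk1* and 18 more than *Aldoa*. The part of spermatids in these results was not tested.

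**Figure D5:**
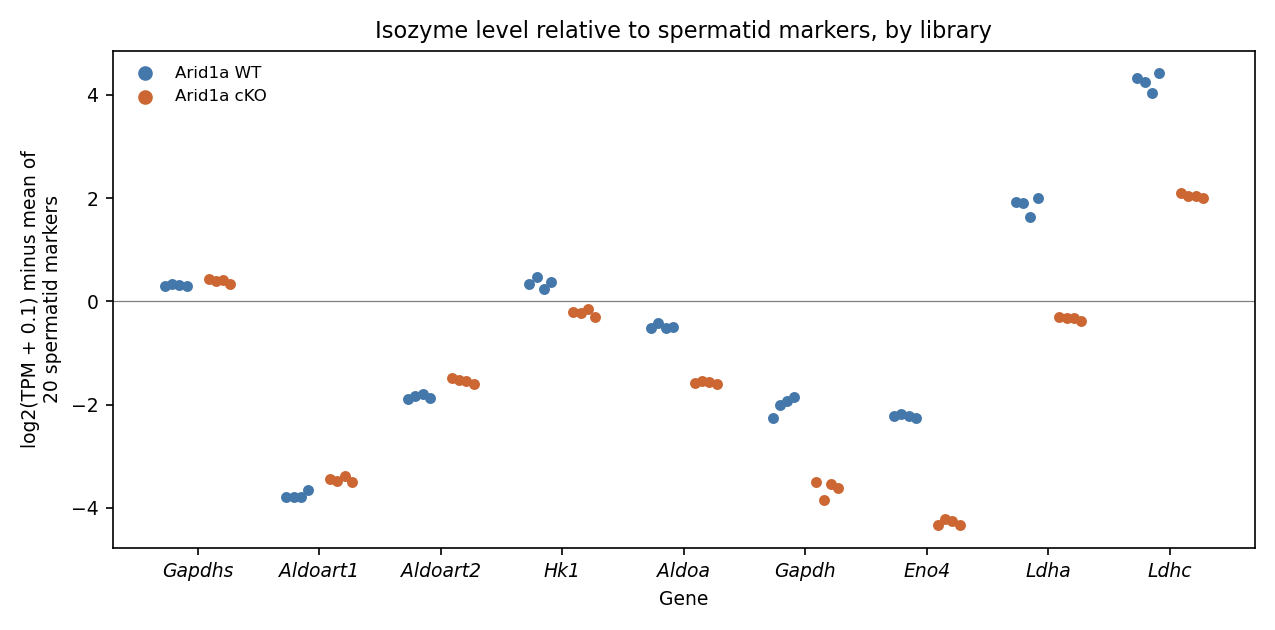
Log2(TPM + 0.1) of each isozyme minus the mean of the 20 spermatid markers of the same library, with 1 point per library (*Ldhb* left out). *Gapdhs* overlaps between genotypes at 0.29 to 0.43, *Aldoart1* and *Aldoart2* lie slightly higher in *Arid1a* cKO, and the other 6 lie lower there.

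The genes most like *Gapdhs* and *Ldhc* over the 8 libraries were found by Pearson correlation of log2(TPM + 1) among 7959 genes with a mean of at least 10 TPM. For *Gapdhs* they were *Best1*, *Akap1*, *Samd4*, *Lyzl4* and *Ttc39a* (log2 fold changes 2.09 to 2.46), and 1353 genes in all had a correlation over 0.99 with it. For *Ldhc* they were *Eef1a1*, *Pmpcb*, *Cct3*, *Zfp35* and *Ldha*, and 6 genes were over 0.99. The libraries form 2 groups by genotype, so these correlations describe the libraries and carry no p.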

How the data were processed

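The 8 RNA-seq libraries (4 *Arid1a* WT, 4 *Arid1a* cKO) held 50 bp paired-end mRNA reads of Sta-Put fractions. Genotype and replicate number came from the sample labels, and every value column had a sample. RNA was prepared in quadruplicate from frozen pellets, and nothing says that the replicates came from separate purifications, so p-values measure only the spread between these libraries, which may be technical. That spread was above counting noise for each pair of replicates (chi-square per degree of freedom 1.71 to 18.0).

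The authors ran Salmon against mm10 and collapsed transcripts to genes by tximport. They deposited estimated counts, scaled neither for depth nor for length, and TPM values, set per transcript length. A deposited table of the authors' own fold changes and p-values was not used. RefSeq (GRCm38.p6) gave symbols for 21036 of 21058 gene numbers.

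Rounded estimated counts of genes with a sum of 10 or more entered edgeR 4.0.16 (R 4.3.3) with TMM scaling and genotype as the only term. The quasi-likelihood p was adjusted by Benjamini and Hochberg's method over all genes, with 0.05 as the limit, and adjusted p values are from this test unless another is named. CPM used TMM-adjusted library sizes. Within-library differences of log2(TPM + 0.1) were compared by two-sided exact permutation over 70 assignments, adjusted over 6 pairs. A planned pair, *Ldhc* minus *Ldhb*, was left out of the adjustment after *Ldhb* was seen to be 0 in every *Arid1a* cKO library. Relative transcript length was derived from the ratio of estimated counts to TPM within a library. That ratio was scaled by library and divided by the mean of the same gene over all libraries. Shared 31-base stretches, exons and coding alignments came from GENCODE M21 (GRCm38), and upstream windows from RefSeq. The fits were tested on simulated data.

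The 10 isozymes, gene lists and markers were chosen with earlier results of these data known. Named genes were the isozymes, *Arid1a*, pathway-list genes with a mean of 10 TPM or more in a genotype, and the 5 genes most correlated with *Gapdhs* and with *Ldhc*. *Hk2*, *Aldoc*, *Pgk1*, *Pdha1*, *Pdk1* and *Pdp2*, given within a family or pair, fall outside it. Alternatives were DESeq2 1.42.0, other scalings and filters, length offsets, limma 3.58.1 on TPM, the replicate number as a block, an adjusted p of 0.01 and each library left out. Limma on TPM rescaled to the listed genes and DESeq2 with length offsets were chosen after seeing the data. Other assays of the study were not analysed here, and 1 gene of the lists is not reported by name.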

Additional observations from a re-analysis of the deposited data

Results flagged for a closer look

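In each genotype the library farthest from the other 3 was examined with Dixon's test, over 86 sets of values for the genes and pairs named. A gap beyond the 95% critical value was found in 6 sets, where chance gives 1 in 20, about 4.3. The gap of *Arid1a* cKO replicate 2 in *Gapdhs* minus *Gapdh* was 0.942 of the range, at 4.24 against 3.93 to 3.95 in the others, and that of *Arid1a* WT replicate 2 in *Ldhc* minus *Ldha* was 0.919 of the range, at 2.35 against 2.41. *Arid1a* WT replicate 3 stood apart for *Tpi1* (0.987 of the range, 5.72 CPM against 6.81 to 6.83) and *Pfkfb3* (0.871, 21.5 CPM against 17.2 to 17.8). *Arid1a* WT replicate 4 stood apart for *Pdp1* (0.885, 17.7 CPM against 20.1 to 20.4), and *Arid1a* cKO replicate 3 for *Pdhb* (0.845, 105 CPM against 111 to 112).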

How the results depend on the processing

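Every isozyme kept its direction in every alternative that gave it a value, and *Gapdhs*, *Aldoart1*, *Aldoart2*, *Aldoa* and *Hk1* kept their calls. Filtering with filterByExpr removed *Ldhb*. *Gapdh* lost its call by limma on log2(TPM + 1) (0.27), on log2(TPM + 0.1) (0.28) and on TPM rescaled to the listed genes (0.12). *Ldhc* lost it by DESeq2 (-0.16), with DESeq2 size factors (-0.16), with filterByExpr (-0.17) and at an adjusted p of 0.01 (-0.19), and lay between -0.24 and -0.10 when single libraries were dropped. *Ldha* lost it in the same settings (-0.14, -0.14, -0.15 and -0.17), and lay between -0.23 and -0.0894. Both were larger and called without TMM (-0.28 and -0.26), by limma on log2(TPM + 1) (-0.33 and -0.31) and on rescaled TPM (-0.48 and -0.46). *Eno4* gained a call without TMM (-0.15), by limma with either pseudocount (-0.17 and -0.17) and on rescaled TPM (-0.32). The fits themselves called 3 isozymes lower in edgeR, 4 without TMM and by limma, 1 by DESeq2, with its size factors and at 0.01, 0 with filterByExpr and 1 to 3 with a library left out, but each of these counts other than 0 includes *Ldhb*, whose call carries no weight because it passed the filter only through *Arid1a* WT, and a count of 1 is *Ldhb* alone.

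Among other named genes, *Pdhx* was called higher with length offsets in edgeR (0.20) and DESeq2 (0.22), and the sign turned for *Pgam2* on rescaled TPM (-0.14), for *Mpc1* by limma (-0.0757, -0.0772 and, rescaled and called lower, -0.22), and for *Pdhx* without TMM (-0.0687), on rescaled TPM (-0.0513), and without *Arid1a* WT replicate 3 or *Arid1a* cKO replicate 4 (range -0.0188 to 0.0713 over libraries left out). The cause was not tested. Over all genes, calls were 6435 higher and 6613 lower, against 4838 and 7587 on rescaled TPM, where the median log2 fold change was -0.13, and 5879 and 7216 without TMM, where it was -0.12. *Ldhc* minus *Ldhb* is set by the pseudocount, at 2.66 with 0.1 and 0.51 with 1, and is given as a value with no test and left out of the adjustment over pairs.

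Replicate numbers did not pair the libraries (correlations of same-numbered deviations 0.16, 0.01, 0.09 and -0.14). With the replicate block, *Ldhc* (-0.18, adjusted p = 0.0501) and *Ldha* (-0.16, adjusted p = 0.0541) lost their calls, leaving 1 isozyme called lower, which is *Ldhb* and carries no weight, and calls over all genes were 6429 higher and 6671 lower. The paired values equal the unpaired ones (1.69 for *Gapdhs* minus *Gapdh*, 2.66 for *Ldhc* minus *Ldhb*, 1.39 for each aldolase pair, -0.35 for *Eno4* minus *Eno1*, 0.78 for *Pgk2* minus *Pgk1*), and 4 pairs cannot reach a sign-flip p under 0.125. With a library left out, the exact permutation p of a pair could not go under 0.0571 before adjustment, and the differences were 1.61 to 1.76, 2.32 to 3.07, 1.35 to 1.42 (*Aldoart1*), 1.37 to 1.42 (*Aldoart2*), -0.40 to -0.30 and 0.63 to 0.90 in the same order. At this depth *Ldhb* had the fewest counts of the isozymes, with 32 in all *Arid1a* WT libraries together. Whether counting limits the other isozymes was not tested.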
